A study of Sus scrofa with 22 samples.

Results

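Thick and thin subcutaneous fat of Large White pigs were compared by small RNA sequencing. The comparison takes 8 of the 22 libraries of the series, those whose source label names Large White, 4 with thick and 4 with thin subcutaneous fat. All 8 came from females of 6 months and from tissue placed in RNAlater directly after slaughter. The labels state no thickness that divides thick from thin fat and name no treatment, and 1 label field repeats the fat class under the tag loin weight. The other 14 libraries, 7 of Pietrain and 7 of Hampshire pigs, entered the breed interaction fit alone. Nothing in the labels says whether libraries were prepared together, and the p-values rest on the scatter among libraries, each deposited as a sample of its own.

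A microRNA (miRNA) is a short RNA that guides an Argonaute protein to messenger RNAs, mainly by pairing through its seed, bases 2 to 8 from the 5' end, and lowers their translation or stability. One miRNA gene gives a hairpin with a 5p and a 3p arm, and the mature miRNA is found as a group of sequences of slightly different ends, called isomiRs. In fat, miRNAs act on the differentiation of preadipocytes, on lipid storage and on inflammation. Fat also holds vessels, blood, immune cells and stroma, which have miRNAs of their own. In bulk tissue, fewer cells of a type and less RNA per cell cannot be told apart.

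The sequences below are examples from the comparison: the most abundant miRNA, those of smallest p, and some with a wide spread between libraries. Each is the most abundant sequence of its name in the Large White table, 5' to 3', with the seed in capitals.
miR-148a-3p: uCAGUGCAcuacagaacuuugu
miR-143-3p: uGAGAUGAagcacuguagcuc
miR-145-5p: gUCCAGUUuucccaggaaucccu
miR-21: uAGCUUAUcagacugauguugac
miR-184: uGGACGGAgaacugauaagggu
miR-128: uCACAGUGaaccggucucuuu
miR-146a-5p: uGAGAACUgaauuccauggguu
miR-9: uCUUUGGUuaucuagcuguaug
miR-122: uGGAGUGUgacaaugguguuu
No seed is shared among these 9, and miR-148a-3p shares its seed with miR-152 and miR-148b-3p.

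The deposited counts covered 218 miRNA names and 6748 named sequences. Named reads per library ran from 557782 in thick fat replicate 1, the shallowest, to 2626580 in thick fat, and from 1447031 to 2729897 in thin fat. The smallest count above 0 was 6 in each library, so a 0 can stand for up to 5 reads. In thick fat replicate 1, 6 reads were worth 12.4 CPM (counts per 1000000 named reads, after TMM scaling), against 2.41 to 4.57 CPM in the other thick libraries and 2.12 to 4.24 CPM in thin fat.

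The labels and the authors' deposited Large White comparison disagreed on 2 libraries, replicate 1 of thick fat and replicate 1 of thin fat. A DESeq2 refit of single sequences with these libraries exchanged gave a log2 fold change (thin minus thick) within 0.01 of that in the authors' deposited table for 6796 of 6796 sequences. A refit by the labels did so for 59 of 6796. The deposited count table lists the column of thick fat replicate 1 before those of the other thin libraries, and that of thin fat replicate 1 before those of the other thick libraries. The files do not say which record is right. The values below follow the labels, and values with the 2 libraries exchanged stand beside the main results.

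Libraries of thick fat did not lie nearer to one another than to thin fat. Over the 131 tested miRNAs with reads in all 8 libraries, the median absolute log2 difference from the other thick libraries averaged 0.34 to 0.43 for each thick library. From the thin libraries it averaged 0.24 to 0.39, the smaller value for each of the 4. For thin libraries the average distance to thin minus that to thick fat ran from -0.052 to -0.0087, yet each thin library had a thick library as its nearest neighbour. The SD of log2 CPM was larger in thick than in thin fat for 93 of the 131 miRNAs, with medians of 0.35 in thick and 0.25 in thin fat. Without thick fat replicate 1 it was larger in thick fat for 78, with medians of 0.30 and 0.25. With the exchange it was larger for 67, with medians of 0.29 in thick and 0.30 in thin fat. These distances are descriptions, with no test.

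Whether miRNA content differs between thick and thin fat is the question of the labelled design. edgeR's quasi-likelihood test with Benjamini-Hochberg adjustment called 0 of 167 miRNAs (0.0% of those tested), with 2 at an unadjusted p under 0.05 (1.2%), miR-184 and miR-128. DESeq2 and limma-voom gave 0 calls each, and in each 3 miRNAs had p under 0.05 before adjustment. With the exchange edgeR called 0, with 4 at an unadjusted p under 0.05 (2.4%). Of the 167, 96 had a positive log2 fold change (57.5%), with a median of 0.050. The 95% interval lay within 1 log2 unit of 0 for 103 miRNAs, which held 85.7% of the mean CPM. By the labels, and with each interval taken alone, the data bound a difference at less than 2-fold for these, while for the other 64 they do not. With the exchange these bounds need not hold.

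**Figure D1:**
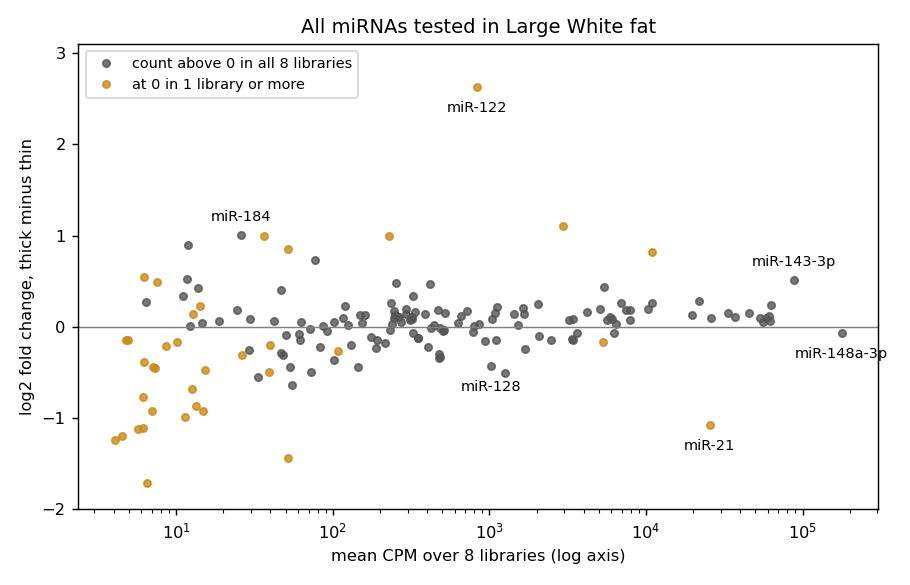
Log2 fold change, thick minus thin fat, against the mean CPM over 8 libraries (log axis), 1 point per miRNA of the 167 tested. miRNAs at 0 in at least 1 library (orange) spread most, and miR-184 reached 1.00 among the 131 with reads in all 8 libraries.

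The 5 most abundant miRNAs held between 40.4% and 49.6% of reads in thick libraries and between 41.0% and 45.8% in thin libraries. miR-148a-3p, which promotes the differentiation of human preadipocytes, had 141959, 196273, 121298 and 234238 CPM in thick fat and 152314, 193822, 177938 and 204182 CPM in thin fat. The ranges overlapped, at a log2 fold change of -0.07 ± 0.22 (SE, 95% interval -0.57 to 0.43). miR-26a, miR-10b and miR-99a had 0.24 ± 0.18, 0.06 ± 0.17 and 0.12 ± 0.19 on the same log2 scale, none past the test.

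miR-143-3p, a miRNA of smooth muscle and stroma that also rises in adipocyte differentiation, had 215167, 72418, 64613 and 62871 CPM in thick fat and 78011, 84457, 54638 and 73842 CPM in thin fat. Thick fat replicate 1 stood far above the 7 other libraries, whose values overlapped between the classes. The log2 fold change of miR-143-3p was 0.51 ± 0.42 (SE), -0.13 without thick fat replicate 1 and -0.62 ± 0.40 with the exchange (edgeR adjusted p = 0.958 by the labels). miR-145-5p comes from the same cluster and likewise marks smooth muscle. It had 11281, 3990.2, 5050.3 and 4540.3 CPM in thick fat and 4972, 4313, 4572 and 4539 CPM in thin fat. Again thick fat replicate 1 was the highest, and the log2 fold change of 0.43 ± 0.31 became -0.027 without it and -0.41 with the exchange. The share of miR-143-3p in thick fat replicate 1 was 18.6% of reads, against 5.97% to 7.85% in the other thick libraries and 5.99% to 8.25% in thin libraries.

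**Figure D2:**
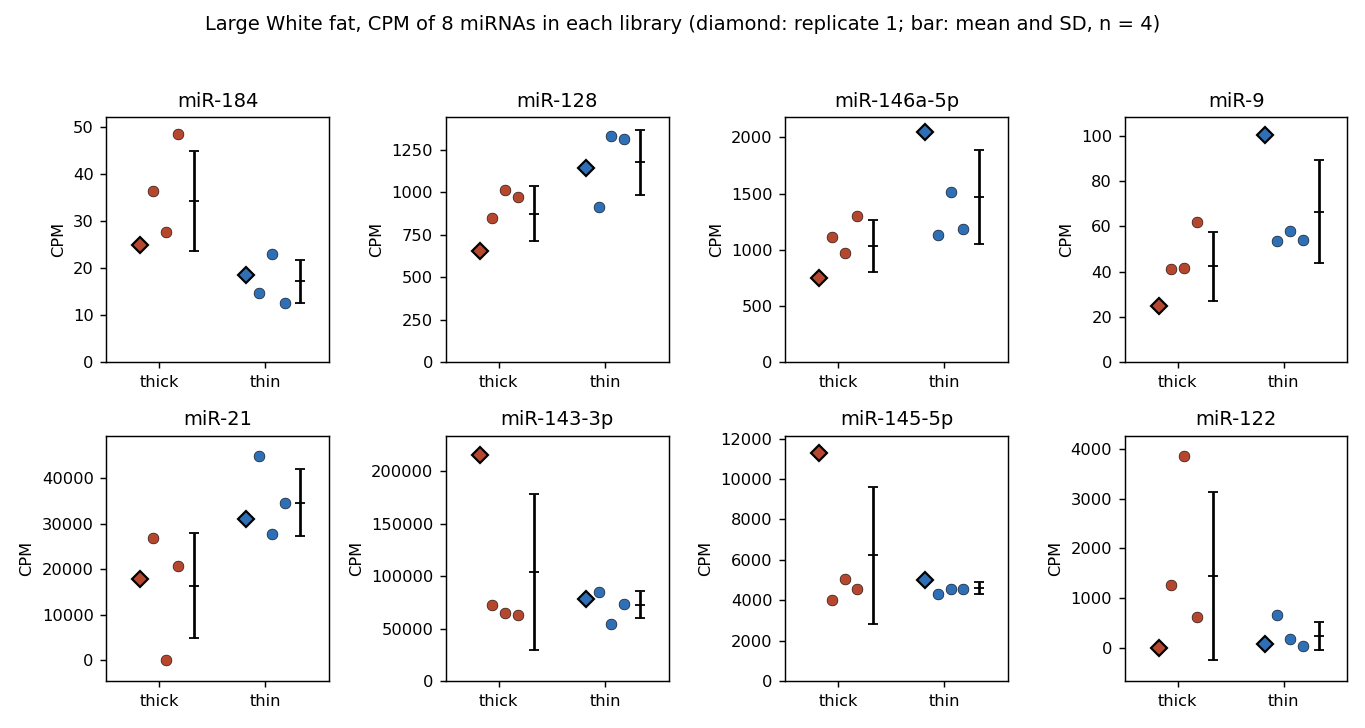
CPM of 8 miRNAs in each Large White library, thick fat at the left and thin fat at the right of each panel, with replicate 1 of each class as a diamond and the mean and SD (n = 4) as a bar, which reaches below 0 where the SD exceeds the mean. The values of miR-184 (at this scaling) and of miR-21 do not overlap between the classes, and thick fat replicate 1 stands alone in miR-143-3p, at 215167 CPM, and in miR-145-5p, at 11281 CPM.

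miR-184, known from the eye lens, cornea and neurons, had 24.9, 36.5, 27.7 and 48.5 CPM in thick fat and 18.5, 14.9, 23.0 and 12.6 CPM in thin fat. Each thick library was above each thin one, and 1 of the 167 miRNAs (0.599%) had this order. In edgeR it stood at a log2 fold change of 1.00 ± 0.37 (SE, 95% interval 0.16 to 1.84, adjusted p = 0.958), with 1.16 with both replicate 1 libraries left out and 0.81 with the exchange. It rests on few reads, since 6 reads were worth 12.4 CPM in thick fat replicate 1. The order also depends on the scaling: with the factors of the seed sums the same reads gave 22.8 CPM in thick fat replicate 1 and 22.9 CPM in thin fat replicate 3, an overlap.

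miR-128, a miRNA best known from the brain that also acts on cholesterol transport genes in mice, had 653, 851, 1015 and 972 CPM in thick fat and 1142, 915, 1329.9 and 1312 CPM in thin fat. The classes overlapped through replicate 2 of thin fat at this scaling, and did not with the factors of the seed sums, where the highest thick library had 991 CPM and the lowest thin library 1023 CPM. This gave -0.43 ± 0.19 on the log2 scale (SE, 95% interval -0.85 to -0.0056, edgeR adjusted p = 0.958), and -0.082 with the exchange. In the fit of all 22 libraries miR-128 had -0.50 ± 0.34 in Large White, 0.14 ± 0.37 in Pietrain and 0.68 ± 0.41 in Hampshire, and the difference between Large White and the mean of the other breeds was -0.91 ± 0.44 (edgeR adjusted p = 0.962), or -0.50 with the exchange.

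miR-146a-5p, which restrains innate immune signalling, had 752, 1111, 974 and 1305 CPM in thick fat and 2047, 1132, 1511 and 1187 CPM in thin fat. The lower values lay in thick fat, with overlap, and the highest was thin fat replicate 1. Its log2 fold change of -0.50 ± 0.24 (SE) became 0.25 with the exchange and -0.18 with both replicate 1 libraries left out. miR-9, a miRNA of the nervous system that is also induced in myeloid cells, had 24.9, 41.1, 41.7 and 62.1 CPM in thick fat and 101, 53.8, 58.1 and 53.9 CPM in thin fat. Its lowest value was thick fat replicate 1 and its highest thin fat replicate 1, the pair of libraries in dispute. The log2 fold change of -0.63 ± 0.34 became 0.35 with the exchange and -0.19 with both left out.

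miR-21, which is abundant in stroma and rises in proliferating and fibrotic tissue, had 17954, 26929, 0 and 20791 CPM in thick fat and 31119, 44827, 27816 and 34645 CPM in thin fat. Each thick library was below each thin one, an order held by 1 of the 167 miRNAs (0.599%). The 0 in thick fat replicate 3 stands beside 1991871 named reads in that library. It lacked reads of 6 miRNAs expected at 100 reads or more, miR-21 among them. Of these, miR-149, miR-29c and miR-708-3p had reads in 1 library alone. The other thick libraries lacked 2 to 7 such miRNAs and thin libraries 7 to 10, so this number does not set replicate 3 apart. The fitted log2 fold change of miR-21 was -1.08 ± 1.80 (SE) with that library and -0.66 ± 0.21 without it (edgeR unadjusted p = 0.0143, adjusted p = 0.941), while limma-voom put it at -5.57 ± 3.74 over all 8 libraries, so its size with the 0 depends on the tool. Over the 3 thick libraries with reads it averaged 21891 ± 4588 CPM (SD, n = 3), against 34602 ± 7365 CPM (SD, n = 4) in thin fat, with a two-sided exact permutation p of 0.0571 from 35 regroupings. This value was picked out after the order of its libraries was seen. That order keeps it close to the smallest possible p of 0.0286, so it adds no support. With the exchange, thin fat replicate 1 at 31119 CPM moves among the thick libraries, and the classes overlap.

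miR-122, a liver miRNA, had 0, 1254, 3849 and 623 CPM in thick fat and 69.9, 660.0, 169.6 and 30.9 CPM in thin fat. The 3 highest libraries were 2 of thick fat and 1 of thin fat. Its log2 fold change of 2.63 ± 1.76 (SE) did not pass the test, and without thick fat replicate 1, the library at 0, it was 3.04 ± 1.22 (edgeR adjusted p = 0.990). Without thick fat replicate 3, the highest library, it was 1.44 ± 1.75, and with the exchange 2.74 ± 1.76. The summed CPM of the liver markers ran from 454 to 4345 in thick and from 360 to 885 in thin fat. Their part in other differences was not tested.

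Among the 20 miRNAs of smallest p, 10 per direction, 10 changed sign with the exchange, and 0 did so with both replicate 1 libraries left out. The 20 were picked on data that include the libraries kept, so the kept signs add no support. Sizes still moved both ways with both left out, from 0.43 to 0.017 for miR-145-5p and from 1.00 to 1.16 for miR-184. Over all 167 miRNAs 80 changed sign with the exchange (47.9%). On the higher side after miR-184 stood miR-451, a red blood cell miRNA, at 0.47 ± 0.26 (SE), miR-151-3p at 0.26 ± 0.15, and miR-27a-5p, the passenger strand of a repressor of adipogenesis in mouse and human cells, at 0.89 ± 0.56. miR-125b, miR-378, miR-26a and let-7d-5p followed, at 0.14 to 0.26. Without thick fat replicate 1 miR-125b stood at 0.10, miR-378 at 0.12 and miR-26a at 0.059. miR-451 and let-7d-5p kept their sign with the exchange, at 0.51 and 0.15, while miR-27a-5p was at -0.24 and miR-125b at -0.10. On the lower side miR-148b-3p, which shares its seed with miR-148a-3p, had -0.25 ± 0.14, and miR-499-5p, carried by slow muscle, had -0.44 ± 0.26. miR-744, miR-92b-3p, miR-17-5p of the proliferation-linked miR-17-92 cluster, miR-455-5p, which promotes brown fat differentiation in mice, and miR-29b, which targets collagens, lay between -0.24 and -0.55. Without thick fat replicate 1 miR-744 stood at -0.20, miR-92b-3p at -0.24, miR-17-5p at -0.13 and miR-29b at -0.35. The edgeR adjusted p was 0.958 for each.

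**Figure D3:**
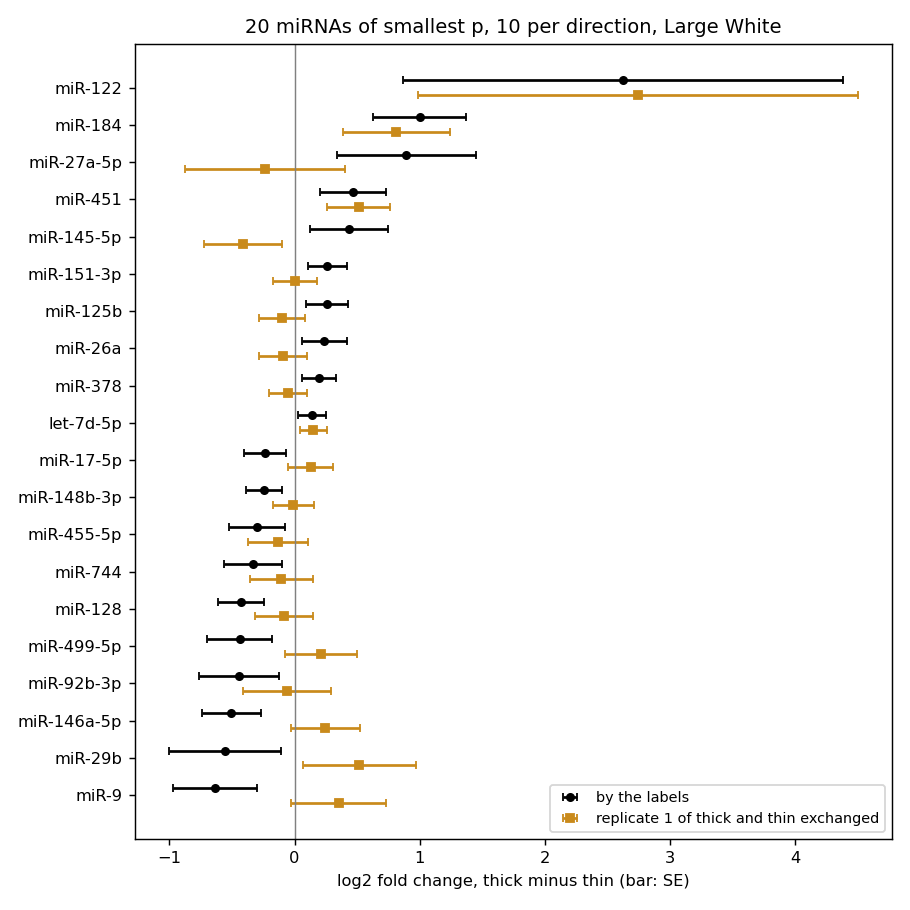
Log2 fold change, thick minus thin fat, with its SE for the 20 miRNAs of smallest p, by the labels (black) and with replicate 1 of thick and of thin fat exchanged (orange). With the exchange 10 of the 20 lie on the other side of 0, miR-9, miR-146a-5p and miR-145-5p among them.

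With the exchange the smallest p-values belonged to other miRNAs. miR-196a had a log2 fold change of 0.61 and miR-1468 of 0.50, against 0.20 and 0.09 by the labels, and miR-139-3p had 0.86 against 0.41. miR-129a-5p then had -1.23, miR-224 -0.88 and miR-214-3p, a stromal miRNA, -0.37. For miR-129a-5p, thick fat replicate 1 had 255 CPM, against 31.7 to 56.2 in the other thick libraries and 39.3 to 78.3 in thin fat. None of these 6 passed, at an edgeR adjusted p of 0.9996.

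miRNA lists for fat biology held 0 called members. Of the adipogenesis promoters 13 of 19 were tested, 5 with a positive and 8 with a negative fold change (median -0.07), and of the repressors 11 of 19 were tested, 7 positive and 4 negative (median 0.13). The exchange moved these medians to 0.063 and -0.094. The thermogenic list had 9 of 11 positive (median 0.08), and lipid and cholesterol metabolism 5 of 9 (median 0.08), with medians of 0.11 and -0.051 with the exchange. miR-30a-5p, which promotes adipogenesis in human cells, had 0.10 ± 0.15 (SE), and miR-30c-5p 0.08 ± 0.16. For miR-27b-3p, a repressor of PPARG in human and mouse cells, the value was 0.13 ± 0.22, and for miR-125a 0.18 ± 0.22. The median of all 167 was 0.050.

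The let-7 family, whose members share the seed GAGGUAG and restrain proliferation, had 8 of 8 tested members with a positive fold change and 0 called, against 57.5% positive over all miRNAs. let-7a stood at 0.09 ± 0.14 (SE), let-7f-5p at 0.05 ± 0.18 and let-7i-5p at 0.10 ± 0.20. The median was 0.10, or 0.18 with the exchange, where let-7i-5p stood at -0.083. With both replicate 1 libraries left out the let-7 median was 0.19. The median of all tested miRNAs was 0.050 by the labels, 0.00032 with the exchange and 0.0087 with both left out. By the labels it was -0.036 with library totals only in place of TMM. Neither the shared sign of the let-7 members nor the part of the scaling in it was tested. The miR-17-92 cluster and its paralogs had 5 of 6 negative, a median of -0.15 and -0.0066 with the exchange, with miR-92a at 0.03 ± 0.16 and miR-20a at -0.06 ± 0.16. The imprinted DLK1-DIO3 cluster had 3 of 4 negative (median -0.13), with miR-381-3p at -0.15 ± 0.22, miR-127 at -0.11 ± 0.22 and miR-493-5p, at 0 in 2 libraries, at 0.23 ± 1.26. The miR-30 family had 3 of 3 positive (median 0.08), with miR-30b-5p at 0.02 ± 0.25.

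Markers of cell types other than adipocytes were measured in each library. The smooth muscle and stroma list had 5 of 7 members positive and a median of 0.43, the highest of the lists with 3 or more members, and a median of -0.37 with the exchange and 0.017 with both replicate 1 libraries left out. Its summed CPM ran from 77998 to 278123 in thick and from 95994 to 144674 in thin fat. Its members miR-21, miR-199ab-3p and miR-199b-5p were all at 0 in thick fat replicate 3, so the sum of that library holds none of them. Its member miR-199ab-3p was at 0 in thick fat replicate 3 and in thin fat replicates 2 and 3, and had 14266 to 21966 CPM in the other thick and 14602 and 17221 CPM in the other thin libraries. Red blood cell markers had 2 of 3 positive (median 0.23, or 0.28 with the exchange) and summed to 856 to 1246 CPM in thick and 801 to 1008 CPM in thin fat. miR-486 of this list had 0.23 ± 0.28 (SE) and miR-16 -0.02 ± 0.18.

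Leukocyte markers had 2 of 5 positive (median -0.14, or 0.020 with the exchange) and endothelial markers 4 of 6 (median 0.10, or 0.060). Inflammation miRNAs had 5 of 12 positive (median -0.16, or -0.081 with the exchange). Among them miR-155-5p, a miRNA of activated leukocytes, had 0.14 ± 0.34 (SE), and miR-181a -0.14 ± 0.14. The endothelial miR-126-3p had 0.15 ± 0.19, and miR-100 of the same list 0.29 ± 0.25, or -0.37 with the exchange. Skeletal muscle markers summed to 316 to 1196 CPM in thick and 288 to 1052 CPM in thin fat, with miR-133a-3p at 0.48 ± 0.79, miR-206 at -0.11 ± 0.91 and a median of -0.11, or 0.091 with the exchange. Epithelium and skin markers had 1 of 2 positive (median -0.050, or 0.037 with the exchange), with miR-429 at -0.16 ± 0.36 and miR-182 at 0.06 ± 0.37. Nerve markers had 3 of 5 positive (median 0.10), with miR-218-5p at 0.10 ± 0.29, and the 2 at an unadjusted p under 0.05 were miR-184 and miR-128. Of the liver list 2 of 2 were positive, with miR-194a at 0.09 ± 0.40. The levels of these lists overlapped between thick and thin fat, and their part in the differences above was not tested.

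**Figure D4:**
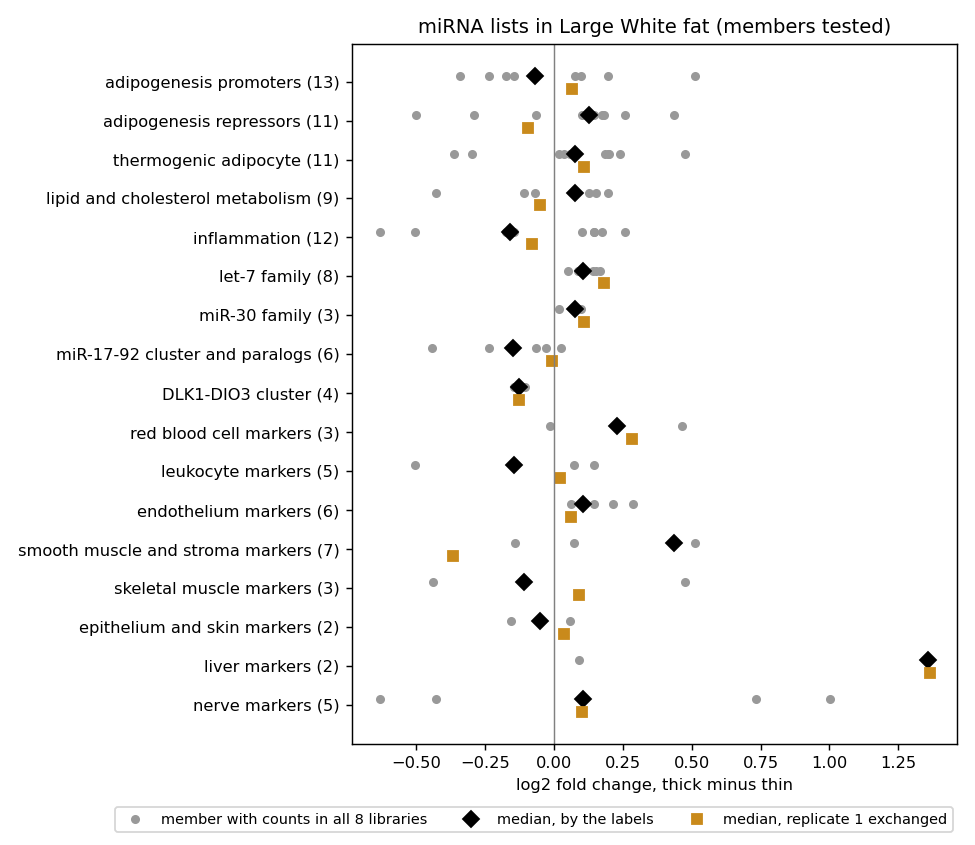
Log2 fold change, thick minus thin fat, of the members of 17 miRNA lists with reads in all 8 libraries (grey), with each list's median over its tested members by the labels (black) and with replicate 1 exchanged (orange). The smooth muscle and stroma median moves from 0.43 to -0.37 with the exchange, and the let-7 median stays above 0.

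Summing miRNAs by shared seed gave 133 families for the test, and edgeR called 0 (0.0%), with 2 at an unadjusted p under 0.05 (1.5%) and DESeq2 also at 0 calls. The fold change was positive for 64 (48.1%). The smallest p belonged to the seed CACAGUG, held by miR-128 alone, at -0.48 ± 0.18 (SE), and it was -0.096 with the exchange. Of the 133 families 2 did not overlap between the classes, both lower in thick fat (1.5%), the seeds of miR-128 and of miR-21. The seed GAGAACU of miR-146a-5p and miR-146b, both induced in inflammation, averaged 1215 ± 310.4 CPM in thick and 1733 ± 430 CPM in thin fat (SD, n = 4 each), a log2 fold change of -0.51 ± 0.24, and 0.24 with the exchange. The seed ACAUUCA of miR-181a, miR-181b and miR-181d-5p averaged 2857 ± 266 CPM in thick and 3271 ± 206 CPM in thin fat (SD, n = 4 each), at -0.20 ± 0.11. The let-7 seed GAGGUAG, the sum of 8 names, stood at 0.03 ± 0.18.

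The balance of the hairpin arms was compared as the log2 ratio of 5p to 3p reads, which needs no scaling between libraries. Of 42 hairpins with both arms, 8 had at least 50 reads per arm in each library. limma called 0 of 8 (0.0%), with 0 at an unadjusted p under 0.05 and 3 with a positive difference (37.5%). miR-143 had -8.16 ± 0.21 in thick and -7.97 ± 0.16 in thin fat (SD, n = 4 each), a difference of -0.18 ± 0.16 (SE). miR-126 had -6.58 ± 0.13 in thick and -6.45 ± 0.43 in thin fat (SD, n = 4 each), and miR-145 had 4.59 ± 0.066 and 4.47 ± 0.34 (SD, n = 4 each). The 3p arm of miR-143 thus stayed in large excess in both classes, including thick fat replicate 1, where the log2 ratio was -8.15 at the highest miR-143-3p level.

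The most abundant sequence of each name held 53.9% ± 2.66 of reads in thick and 54.9% ± 1.27 in thin fat (SD, n = 4 each). Reads with U added at the 3' end made up 7.82%, 4.87%, 5.57% and 4.60% in thick libraries and 5.98%, 5.19%, 5.15% and 5.02% in thin libraries, with thick fat replicate 1 the highest. Reads trimmed at the 3' end made up 9.15% ± 0.36 in thick and 9.15% ± 0.61 in thin fat, and reads with a shifted 5' start 2.44% ± 0.24 and 2.39% ± 0.13 (SD, n = 4 each). The mean read length was 21.85 nt ± 0.042 in thick and 21.89 nt ± 0.022 in thin fat (SD, n = 4 each). Of 12 such library measures, 0 passed the two-sided exact permutation test after adjustment, with an adjusted p of 0.935 or more and a smallest unadjusted p of 0.143, for read length. The design of 4 against 4 libraries allows no p below 0.0286, and after adjustment most of the 12 measures would have to reach that p for any to pass, so the lack of a pass does not show that the classes are alike.

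**Figure D5:**
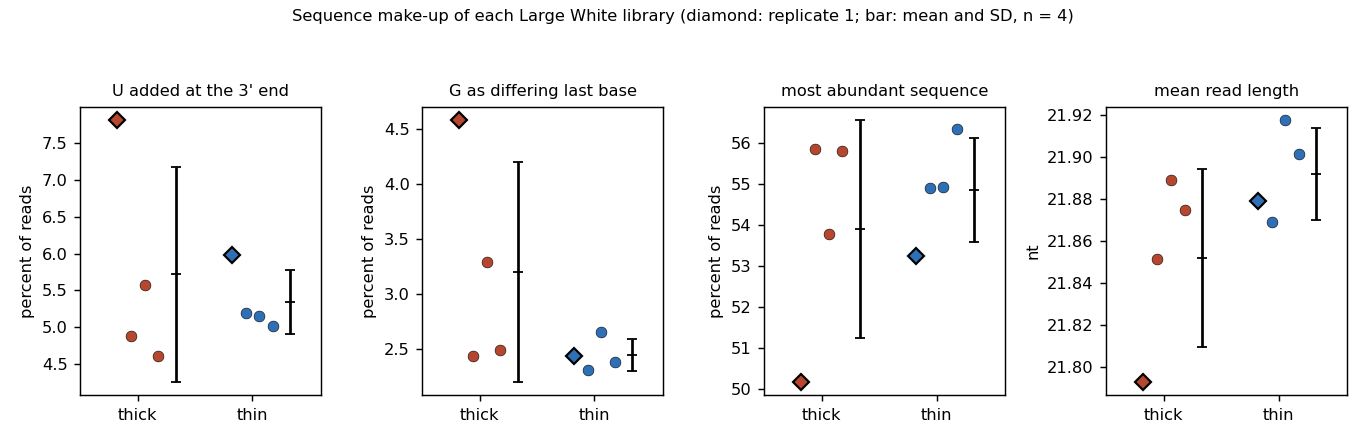
Percent of reads with U added at the 3' end, percent with a last base G that differs from the most abundant sequence, percent in the most abundant sequence, and mean read length (nt), per Large White library, thick fat left of thin fat, with replicate 1 as a diamond and the mean and SD (n = 4) as a bar; the axes do not start at 0. Thick fat replicate 1 is the highest in the first 2 panels, at 7.82% and 4.58%, and the lowest in the last 2.

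Among 3073 single sequences edgeR made 0 calls (0.0%), and 34 reached an unadjusted p under 0.05 (1.11%), while 1415 had a positive fold change (46.0%). DESeq2 and limma-voom also called 0, with 44 and 91 such p-values. The exchange left edgeR at 0 calls, with 39 such p-values. The authors' deposited table called 0 of 6771 sequences with a p-value, with 91 at an unadjusted p under 0.05. The smallest p-value in the authors' deposited table was that of a miR-122 sequence at -6.14 ± 1.77 on the log2 scale (SE), which is thin minus thick under the exchanged assignment. Its mean scaled count was 7.37, near the smallest count above 0 of 6, so this size is no measure of the change. The refit with DESeq2 by the labels, on all 6796 sequences, called 2, both of miR-500, and 0 with the exchange. miR-500 had 44, 0, 287 and 261 reads in thick fat and 0 in each thin library. It was left out of the edgeR fit by the filter on low counts, and no fold is given for it.

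By smallest p the leading sequences were isomiRs of miR-126-3p, miR-145-5p and miR-152 on the higher side, at 1.12 ± 0.33, 0.65 ± 0.24 and 0.68 ± 0.25 (log2, SE), and of miR-21, miR-27a and miR-128 on the lower side, at -2.87 ± 1.12, -0.65 ± 0.25 and -0.79 ± 0.31. In this order they held 0.042%, 0.455% and 0.866% of the reads of their names on the higher side, and 0.018%, 0.776% and 4.48% on the lower side. Rare single-base variants of abundant miRNAs cannot be told apart here from sequencing errors. The miR-21 isomiR was at 0 in 3 thick libraries, so its fitted size is no measure of the change. Several of the leading sequences on the higher side are printed here because they share an ending or a library. Capitals mark the bases that differ from, or extend, the most abundant sequence of the name.
let-7a isomiR: ugagguaguagguuguauagG
let-7f-5p isomiR: ugagguaguagauuguauagG
let-7c isomiR: ugagguaguagguuguguggG
miR-10b isomiR: uacccuguagaaccgaauuugG
miR-152 isomiR: ucagugcaugacagaacuuggG
miR-126-3p isomiR: ucguaccgugaguaauaauAcg
The let-7 isomiRs follow the most abundant sequence to base 20 and then end in G. Names are those of the deposited counts. Under let-7c the most abundant sequence has G at base 17, and another leading sequence has A there (G17A). Whether the reads under that name come from a single miRNA was not tested. The miR-10b isomiR carries U22G and the miR-126-3p isomiR G20A, counting positions from the 5' end, which is 1.

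The let-7a isomiR had 273, 127, 170.2 and 97.9 CPM in thick fat and 111, 110.9, 104 and 79.5 CPM in thin fat. The miR-10b isomiR had 1374, 578, 619 and 481 CPM in thick fat and 414, 463, 466 and 511 CPM in thin fat. The miR-126-3p isomiR had 59.0, 21.3, 25.4 and 24.6 CPM in thick fat and 13.7, 12.7, 15.4 and 15.4 CPM in thin fat. In each of these, thick fat replicate 1 was the highest of the 8 libraries, and the values of let-7a and miR-10b overlapped between the classes while those of miR-126-3p did not. The log2 fold changes of let-7a and miR-10b were 0.71 ± 0.29 and 0.72 ± 0.30 (SE), and the edgeR adjusted p was 0.9998 for all 3. Without thick fat replicate 1 let-7a stood at 0.38 ± 0.22, miR-10b at 0.27 ± 0.16 and miR-126-3p at 0.73 ± 0.20 (edgeR unadjusted p = 0.00419 for miR-126-3p, adjusted p = 0.9985 for each). With the exchange let-7a stood at -0.15, miR-10b at -0.43 and miR-126-3p at -0.14.

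Of the 10 sequences of smallest p on the higher side, 8 had their highest thick value in replicate 1. Reads that match the most abundant sequence up to their own last base, with G there in place of another base or beyond its end, made up 4.58%, 2.44%, 3.29% and 2.49% in thick libraries and 2.44%, 2.31%, 2.65% and 2.38% in thin libraries. Thick fat replicate 1 was again the highest, and without it the thick mean was 2.74% ± 0.48 (SD, n = 3), against 2.45% ± 0.15 (SD, n = 4) in thin fat. This share was examined after the sequences were seen and was not tested.

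Sequences whose values did not overlap between the classes numbered 82 (2.67%), with 19 higher (0.618%) and 63 lower (2.05%) in thick fat. Of the 63, 32 were at 0 in thick fat replicate 1 and 40 at 0 in replicate 3. The order that selected them allows no 0 in a thin library. Thick fat replicate 1, the shallowest library, was at 0 for 32.9% of the 3073 sequences tested and replicate 3 for 5.40%, against 0.618% to 7.26% in thin libraries. The part of these zeros in the count of 63 was not tested.

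Whole miRNAs at 0 occurred in both classes. For 17 of 218 names at least 1 library was at 0 where 100 reads or more were expected. That expectation came from the median CPM of the libraries with reads. miR-29c, miR-149, miR-345-3p, miR-708-3p and miR-142-5p had reads in 1 library alone. That library set their expected level, so their zeros elsewhere need not be losses. With these names included, thick libraries had 2 to 7 such zeros each and thin libraries 7 to 10. miR-10a-5p, a HOX-cluster miRNA, was at 0 in thick fat replicate 1, and had 11035 to 14346 reads in the other thick libraries and 7008 to 17510 reads in thin libraries.

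The Large White difference was set against that in the other breeds in a fit of all 22 libraries, where 0 of 202 miRNAs passed in edgeR (0.0%), and 10 had p under 0.05 before adjustment (4.95%). limma-voom also gave 0, with 5 such p-values. DESeq2 called 5, miR-145-5p, miR-200b, miR-345-3p, miR-450c-5p and miR-500. The smallest edgeR p-values were those of miR-500, miR-145-5p and miR-335-3p (adjusted p = 0.616 each), all 3 at 0 in some libraries of the fit. miR-335-3p had 6, 35, 0 and 19 reads in thick and 0 in each thin Large White library. For miR-9 the log2 fold change was -0.72 ± 0.34 (SE) in Large White, -0.70 ± 0.36 in Pietrain and -1.34 ± 0.38 in Hampshire, and the difference between Large White and the mean of the others was 0.30 ± 0.44. With the exchange that difference was 1.38 (edgeR unadjusted p = 0.00894, adjusted p = 0.708).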

How the data were processed

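Read counts per sequence, whole numbers with no normalization, were deposited by the authors as 1 table per breed. Their deposited Large White comparison holds these columns, per the file headers: the scaled mean signal, log2 fold change, SE, Wald score and raw and adjusted p-values. Per the submitters' processing notes, DESeq2, FastQC and bcl2fastq were used with the build Sscrofa10.2. Trimmer, aligner and miRNA annotation are not given in the sources used here, and positions in the genome are left out.

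Counts of sequences of 1 miRNA name were summed. The 48 unnamed of 6796 sequences, 0.0465% of reads, were left out. No pair of libraries within a class agreed within sampling noise (chi-square per degree of freedom of 187 or more).

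Names, single sequences and seed sums were tested in the 8 Large White libraries with edgeR 4.0.16 (quasi-likelihood, robust, TMM, filterByExpr, R 4.3.3), thick minus thin, calls having a Benjamini-Hochberg adjusted p under 0.05. SE is the fold change over the square root of F. Arm ratios, with a pseudocount of 0.5, were fitted with limma 3.58.1, and library measures by exact permutation. DESeq2 1.42.0 and limma-voom were alternatives. The edgeR fits were checked on simulated counts with no losses of whole miRNAs added. For the arm ratio fit simulated normal values were used, and for the permutation test made-up values. Amplified reads were counted with no molecular identifiers, so the counts are not of independent molecules.

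The comparison, lists and tests were chosen with earlier results of these data known. Named are the 10 of smallest p per direction, the 5 most abundant and the 3 per direction with the 2 libraries exchanged. Also named are 3 for the breed interaction, 3 hairpins and up to 3 abundant members per list. Of single sequences, the 3 of smallest p per direction were to be named; further isomiRs, miR-21's regrouping, last bases and losses were picked after their values were seen. miR-500 and miR-335-3p did not pass the filter of the Large White fit.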

Additional observations from a re-analysis of the deposited data

Results flagged for a closer look

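Of 72 groups of 4 values examined, 5 had a library far from the other 3; chance gives about 5% of groups. In thick fat replicate 1 stood far above the others for miR-143-3p, at 215167 CPM with the others at 62871 to 72418 CPM, for miR-145-5p, at 11281 CPM with the others at 3990.2 to 5050.3 CPM, and for miR-125b, at 15387 CPM with the others at 10293 to 10970.1 CPM. In thin fat replicate 1 stood far above the others for miR-9, at 101 CPM with the others at 53.8 to 58.1 CPM. It stood far below them in the share of the 5 most abundant miRNAs, at 41.0% with the others at 45.4% to 45.8%. The 2 libraries are those on which the labels and the authors' deposited table differ.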

How the results depend on the processing

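Over 90 counts of calls recomputed under alternatives, 85 equalled the count reported and 5 did not. Without thick fat replicate 2 edgeR called 1 miRNA, 1 sequence and 1 seed family, all of miR-500, which that library lacks and each thin library lacks. There miR-500 passed the filter on low counts through thick fat alone. The reads that admitted it are those tested, so these calls add no support. Leaving out each library in turn thus gave 0 to 1 for miRNAs, sequences and seed families, and 0 for arm ratios and the breed interaction. With no filter 9 sequences were called. DESeq2 called 5 miRNAs in the breed interaction, where the Large White difference between fat classes is set against that of the other breeds. The cause was not tested.

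With the 2 libraries exchanged, the log2 fold change was -0.24 for miR-27a-5p, -0.10 for miR-125b, -0.051 for miR-378, -0.41 for miR-145-5p, -0.093 for miR-26a, 0.25 for miR-146a-5p, 0.35 for miR-9, 0.21 for miR-499-5p, 0.13 for miR-17-5p and 0.52 for miR-29b. The arm ratio difference was 0.15 for miR-126 and -0.16 for miR-145, and 0.0092 and -0.029 with both libraries left out. Thick minus thin was then 235148 for total reads, 5.75 for names with reads, -3.72 percentage points for the 5 most abundant names, 0.080 bits for entropy, 0.0033 nt for read length, 0.58 points for the most abundant sequences, -0.54 for added U, -0.13 for single-base changes and 0.0044 for the less abundant arm.

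Leaving out 1 library gave -0.027 to 0.59 for miR-145-5p, and for arm ratios -0.30 to 0.031 (miR-126) and -0.016 to 0.26 (miR-145). It gave -0.91 to 2.17 points for the 5 most abundant names, -0.063 to 0.022 bits for entropy, -1.60 to 0.29 points for the most abundant sequences, -0.18 to 0.24 for trimmed ends, -0.32 to 0.75 for added U, -0.025 to 0.14 for shifted starts and -0.039 to 0.026 for the less abundant arm. The permutation test of library measures allows no p below 0.0286 with 4 against 4 or with 3 against 4 libraries, so its counts of 0 say little after adjustment. No paired analysis was possible because the labels give no replicate number shared between thick and thin fat.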
